A study of Mus musculus with 19 samples.

Results

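Mouse induced pluripotent stem cells (iPSC) that lack the miR-302 cluster (miR-302 KO) were compared with wild-type (WT) iPSC. These 2 groups, taken by their labels, hold 7 of the 19 libraries of the series: 4 miR-302 KO libraries, which are 2 libraries from each of 2 colonies, and 3 WT libraries. The series asks what the miR-290 and miR-302 clusters do when fibroblasts are reprogrammed. Both groups are mouse embryonic fibroblasts reprogrammed with the transcription factors Oct4, Sox2 and Klf4, kept in medium with LIF (leukemia inhibitory factor) and FBS (fetal bovine serum), and collected later than passage 18. Each KO colony was derived on its own, whereas the submitters except the WT iPSC from that statement, so the 3 WT libraries may share 1 derivation, and the p-values then measure the spread between these samples only. The labels give the genotype as miR-302KO or WT and do not name the allele or strain. The other 12 libraries, used here only for values set beside the main ones, are miR-290 KO iPSC (4), iPSC lacking both clusters (double KO, 4), miR-290 KO embryonic stem cells (ESC, 2) and miR-302 KO ESC (2).

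MicroRNAs are short RNAs that pair through their seed, bases 2 to 8, with sites in messenger RNAs and lower the stability and translation of those messages. The miR-302 and miR-290 clusters are the best known microRNAs of early embryos and pluripotent stem cells, where they speed the G1 to S step of the cell cycle and oppose silencing of self-renewal. The mouse miR-290 cluster is the more abundant of the pair in ESC, and miR-302 is typical of the slightly later epiblast state. Most members of both carry the same seed, so that either cluster can act on the targets of the other.

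A set of 7 mature 3p arms from the RefSeq table (build GRCm38.p6) is shown to make that shared seed visible, with bases 2 to 8 in capitals. The set does not hold every member of either cluster, and miR-302a-3p was missing from the source used. The first 4 come from the deleted cluster and the last 3 from the miR-290 cluster, which these cells keep.
mmu-miR-302b-3p: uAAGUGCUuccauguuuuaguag
mmu-miR-302c-3p: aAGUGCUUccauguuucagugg
mmu-miR-302d-3p: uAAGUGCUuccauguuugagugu
mmu-miR-367-3p: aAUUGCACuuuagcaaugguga
mmu-miR-291a-3p: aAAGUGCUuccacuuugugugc
mmu-miR-294-3p: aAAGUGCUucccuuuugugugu
mmu-miR-295-3p: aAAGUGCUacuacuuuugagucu
Of these 7 arms, 5 have the seed AAGUGCU, those of miR-302b, miR-302d, miR-291a, miR-294 and miR-295. In the table the miR-302c arm starts 1 base later, so its bases 2 to 8 read AGUGCUU, and miR-367 has a seed of its own, AUUGCAC. The 4 arms shown from the deleted cluster span chr3:127545275-127545800 on the plus strand (GRCm38). They lie within Larp7 (chr3:127536714-127553349, minus strand), where 0 annotated Larp7 exons overlap them, so the position is intronic.

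The libraries were made from the 3′ ends of polyadenylated RNA, so the deleted microRNAs themselves were not analysed here and the genotype rests on the labels. Larp7, the La-related protein gene that hosts the cluster, had 272 and 243 CPM (read counts scaled to a common library total) in colony 1, 312 and 248 in colony 2, and 315, 318 and 274 in WT, where a pair of values is always library 1 followed by library 2. The ranges overlapped, with a log2 difference of -0.17 (standard error, SE, 0.20). The neighbours Zgrf1, Ank2, Ap1ar and Camk2d also overlapped between the groups.

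Recovered reads were 17470688 and 11074948 in colony 1, 19523403 and 20287555 in colony 2, and 14497577 to 18733257 in WT. A count of 3 reads, the limit that a count of 0 allows, was 0.148 to 0.271 CPM in the KO libraries, and these limits cover counting error only because the reads carry no molecular identifiers. Summed over the 5 pluripotent markers (Pou5f1, Sox2, Nanog, Zfp42 and Esrrb) the KO libraries had 2365 to 3384 CPM and WT 1831 to 2344. Of 8 fibroblast markers, Col1a1, Thy1 and Pdgfrb had recovered reads and summed to 3.88 to 14 CPM in KO and 6.08 to 7.86 in WT. These markers are those of pluripotent cells in both groups and do not tell iPSC from ESC.

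The second library of colony 1 stood apart from the other 6. Its Spearman correlation with the WT libraries across genes was 0.838 to 0.854, against 0.951 to 0.970 for the other 3 KO libraries and 0.975 to 0.979 among WT. Its median absolute log2 difference from the WT mean was 1.04, against 0.32 to 0.37 in the others, and 36.5% of genes were lower by 1 log2 unit or more while 15.3% were higher. It had the fewest reads of the 7, and its 20 most abundant genes took 17.1% of reads, against 10.7% to 13.5% in the other 6.

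**Figure D1:**
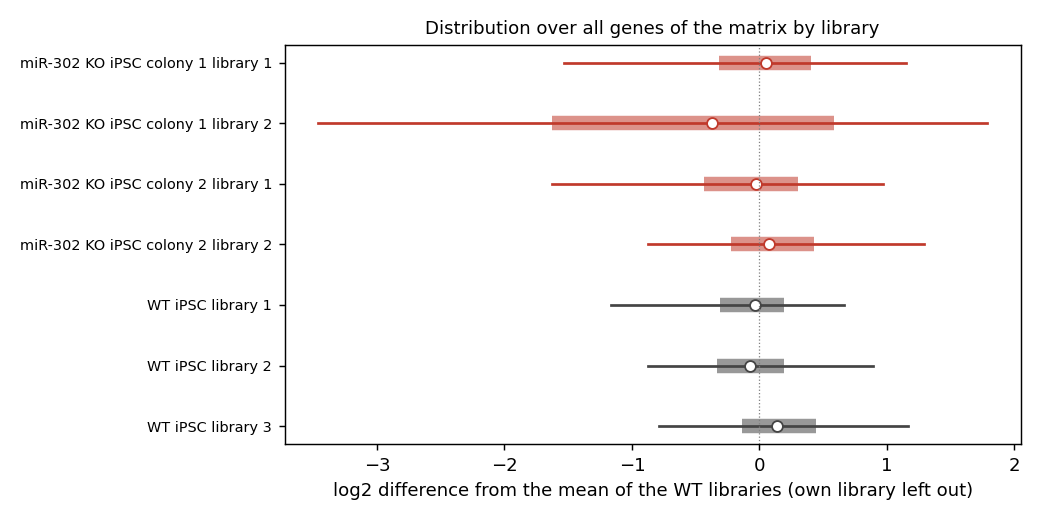
Distribution over 12778 genes of the log2 difference between each library and the mean of the WT libraries (a WT library is set against the other WT libraries); the dot is the median, the bar the 25th to 75th percentile and the line the 5th to 95th. Colony 1 library 2 has a median of -0.37 and the widest spread, and the other 6 medians lie between -0.08 and 0.14.

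The libraries did not pair up by colony either. The 2 libraries of colony 1 differed by 1 log2 unit or more in 49.9% of genes and those of colony 2 in 21.1%, against 11.2% and 16.6% in the miR-290 KO colonies and 7.41% and 6.77% in the double KO colonies. The closest library to colony 2 library 2 was the first miR-302 KO ESC library (Spearman 0.981), ahead of colony 2 library 1 (0.947). The labels are used here as given.

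The Y-linked genes gave the same kind of split. Ddx3y, a Y-linked RNA helicase, had 0 and 13 CPM in colony 1 and 12.2 and 0.296 in colony 2, against 7.93, 8.06 and 8.69 in WT. Colony 1 library 1 and colony 2 library 2 thus had almost none, while the other library of each colony was above WT. Eif2s3y, a Y-linked translation initiation factor subunit, had 0, 0.271, 3.53 and 0.0493 CPM in KO in the same order and 2.14 to 3.36 in WT, and Uty, a Y-linked histone demethylase relative, had 0.0572, 0.181, 3.995 and 0.0493 against 1.96 to 2.41. These 2 genes reached or passed the WT levels only in colony 2 library 1, so colony 1 library 2 was high for Ddx3y alone of the 3. Xist, the RNA of the inactive X chromosome, was 0 in 6 libraries and 9.37 CPM in colony 2 library 2. The pattern did not follow the colony labels, and its part in the results was not tested beyond the values given here. The called genes are therefore given with and without these libraries, and several of the larger differences and the list medians also without colony 1 library 2.

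Differences between the groups were computed on log2 values after the libraries of a colony were averaged, and a gene was called when its Benjamini-Hochberg adjusted p from limma was under 0.05. Against WT, 4 of 12778 genes were called (0.0313%), 3 higher (0.0235%) and 1 lower (0.00783%), while 1928 genes (15.1%) had an unadjusted limma p under 0.05. The genes higher in miR-302 KO cells were Rftn2, Myof and Emd, and the lower gene was Ddx3y. Rftn2 and Emd were called under every alternative that was run. The number of calls depended on single libraries: it was 264 without colony 2 library 2, 14 without colony 2 library 1, 7 without the second library of double KO colony 2, and 3 without either library of colony 1 in turn.

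Rftn2 (chr1:55170159-55226782, minus strand), which encodes raftlin 2, a lipid raft protein, had 60.6 and 447 CPM in colony 1 and 186 and 65.2 CPM in colony 2, against 4.89, 4.004 and 2.97 CPM in WT. Every KO library lay far above every WT library, and colony 1 library 2 was the highest. Rftn2 rose by 5.07 on the log2 scale (SE 0.45, adjusted p = 0.000437 by limma), and by 4.35 (adjusted p = 0.00339 by limma) without colony 1 library 2. Without the libraries low in Ddx3y the difference was 6.17, and without the other 2 it was 3.98.

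Myof (chr19:37899036-38043577, minus strand) encodes myoferlin, a membrane protein of the ferlin family that works in membrane repair and fusion. It had 98.05 and 59.0 CPM in colony 1 and 55.9 and 68.2 in colony 2, against 4.51, 5.87 and 4.69 in WT, with a narrow range in each group. Myof rose by 3.75 (SE 0.43, adjusted p = 0.0048 by limma) and by 3.93 without colony 1 library 2. It was 3.49 without the libraries low in Ddx3y and 4.004 without the other 2. With colony 1 alone Myof was still called (3.90, adjusted p = 0.00588 by limma), and with colony 2 alone the difference was 3.60 and the adjusted p 0.141 by limma.

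Emd (chrX:74254687-74261548, plus strand) encodes emerin, a LEM domain protein of the inner nuclear membrane. It had 143 and 102 CPM in colony 1 and 122 and 184 in colony 2, while WT had 32.6, 31.4 and 32.1. Emd rose by 2.07 (SE 0.18, adjusted p = 0.000437 by limma), by 2.19 without colony 1 library 2, by 1.80 without the libraries low in Ddx3y and by 2.34 without the other 2. The Ddx3y difference was -2.23 (SE 0.30, adjusted p = 0.0175 by limma), with KO libraries on both sides of WT (colony means -2.61 and -1.84 from WT). With each library as a sample the SE was 1.10 and the adjusted p 0.444 by limma, and the adjusted p was 0.493 with the correlation within a colony estimated and 0.57 with a replicate block. The difference was 0.61 without colony 1 library 1 and colony 2 library 2.

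**Figure D2:**
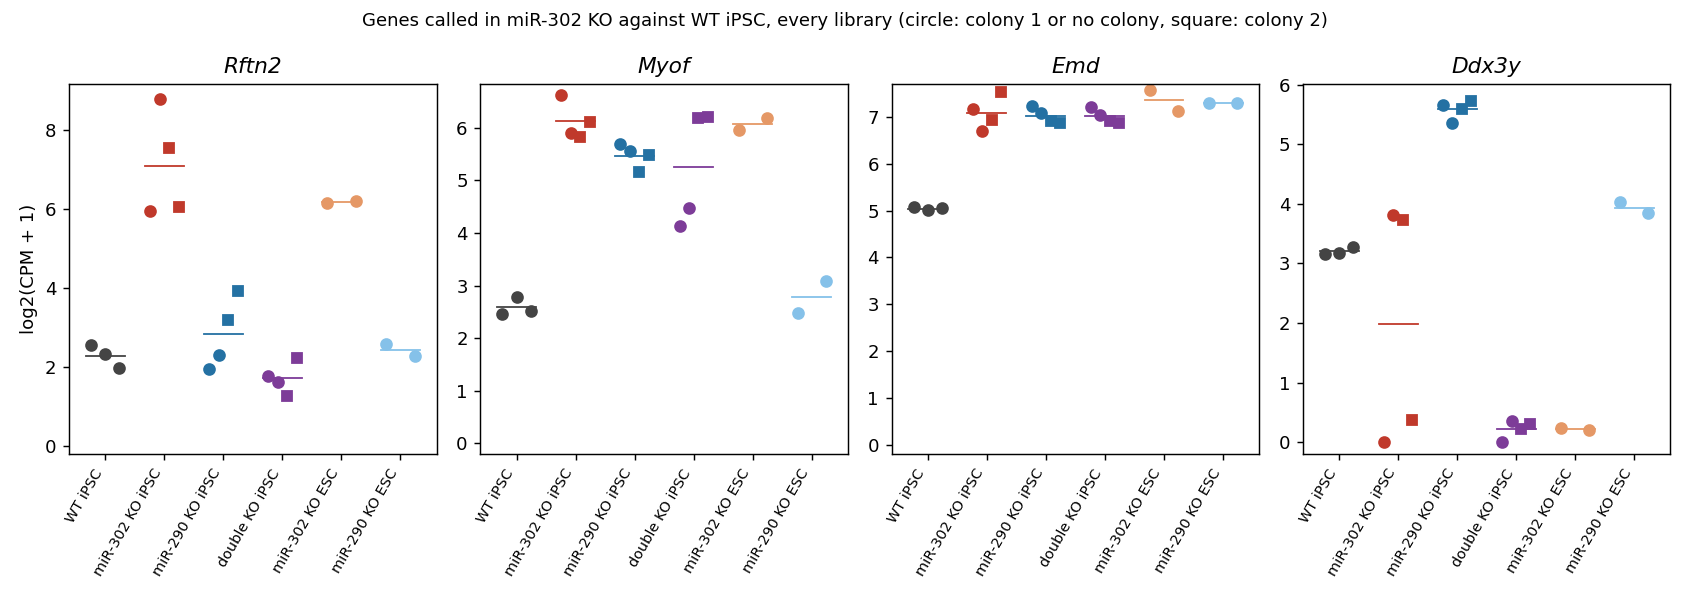
Level of the 4 called genes, as log2(CPM + 1), in every library of the 6 groups; circles are colony 1 or samples with no colony, squares colony 2, and short lines group means. The 4 miR-302 KO iPSC libraries sit above the 3 WT libraries for Rftn2, Myof and Emd, and on both sides of them for Ddx3y.

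The 3 genes higher in KO differed in how the other genotypes of the series behaved. Rftn2 was also high in both miR-302 KO ESC libraries (70.4 and 72.8 CPM) and lay at 2.85 to 14.3 CPM in miR-290 KO iPSC, 1.41 to 3.70 in double KO iPSC and 3.84 to 4.96 in miR-290 KO ESC. Without using WT, but with the same miR-302 KO libraries, miR-302 KO iPSC exceeded miR-290 KO iPSC for Rftn2 by 4.45 (adjusted p = 0.00207 by limma). Double KO iPSC were below miR-302 KO iPSC by a log2 difference of -5.77 (adjusted p = 1.94e-06 by limma).

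Emd was at 117 to 191 CPM in every knockout library of any genotype other than miR-302 KO iPSC, ESC included, and the difference between miR-302 KO and miR-290 KO iPSC was 0.05 (adjusted p = 0.921 by limma). The WT iPSC were thus the only group at 31.4 to 32.6 CPM. Myof was at 34.8 to 50.9 CPM in miR-290 KO iPSC and 16.6 to 73.2 in double KO iPSC, and its difference from miR-290 KO iPSC was 0.66 (adjusted p = 0.488 by limma). In ESC it was 61.0 and 72.0 CPM with miR-302 deleted and 4.55 and 7.50 CPM with miR-290 deleted.

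The following neighbours of Rftn2, Myof and Emd did not show the same separation. Hspd1, Mob4 and Mars2 near Rftn2, Hhex, Cep55 and Exoc6 near Myof, and Flna, Rpl10, Taz, Irak1 and Dnase1l1 near Emd overlapped between the groups.

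Few genes were called, so the libraries were also set side by side. In 600 genes (4.7%) all 4 KO libraries lay above all 3 WT libraries, and in 613 (4.8%) all lay below. With a mean difference of at least 1 log2 unit the counts were 183 higher (1.43%) and 276 lower (2.16%), and without colony 1 library 2 they were 230 (1.8%) in each direction. Both directions together gave 459 genes, and 861 without colony 1 library 1, 1003 without colony 2 library 2 and 916 without WT library 3. With fewer libraries non-overlap is easier to reach, so part of any rise follows from the rule itself. Across all genes the median difference was -0.11, and 0.01 without colony 1 library 2. A difference of 1 or more was found between KO and WT in 13.2% of genes and between the 2 KO colonies, each a mean of fewer libraries, in 23.3%.

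**Figure D3:**
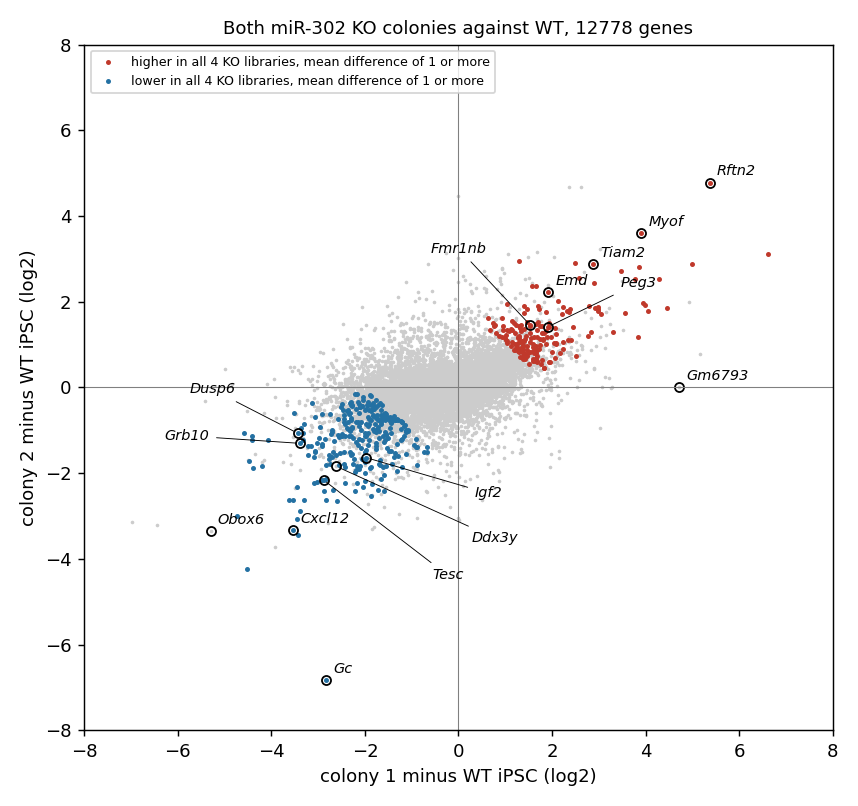
Log2 difference of each KO colony from WT, colony 1 on the x axis and colony 2 on the y axis, 1 dot per gene (12778 genes); red and blue mark genes whose KO and WT libraries do not overlap with a mean difference of 1 or more, and circled genes are named. Rftn2 lies farthest toward the upper right among the named genes, at 5.37 in colony 1 and 4.78 in colony 2, whereas Gm6793 is at 0.00 in colony 2.

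The authors' deposited table for this comparison lists 43 genes, 32 higher and 11 lower in miR-302 KO. It was made from these same libraries and is not independent evidence. Of the 41 that are in the matrix, all 41 had the same sign here, 31 lay higher and 9 lower in every KO library than in any WT library, 38 had an unadjusted limma p under 0.05, and 3 were called. The exception that overlapped was St8sia1, a ganglioside sialyltransferase gene, with 0.630, 5.87, 3.89 and 27.9 CPM in KO and 0.272, 0 and 1.10 in WT. The authors' deposited table gives log2 fold changes of 5.76 for Rftn2, 3.84 for Myof and 2.14 for Emd, close to the differences above.

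Each of the following genes of that table was higher in all 4 KO libraries without being called. Tiam2, an exchange factor that activates Rac, had 18.9, 9.48, 7.89 and 22.8 CPM in KO and 2.12, 1.39 and 1.72 in WT (difference 2.87, SE 0.53, adjusted p = 0.0997 by limma; 3.12 without colony 1 library 2). Epha4, an ephrin receptor, had 54.5, 51.5, 67.9 and 63.4 against 15.3, 23.3 and 35.2. Rnd3, a small GTPase-like protein that loosens the actin cytoskeleton, had 24.8, 21.9, 20.7 and 28.7 against 8.91, 9.72 and 11.6.

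Lama4, a laminin chain of basement membranes, was low in every library, at 2.40, 3.70, 3.12 and 0.937 CPM in KO and 0.217, 0.160 and 0.0690 in WT. Adam23, a membrane protein that binds integrins, had 20.1, 15.3, 25.2 and 14.3 against 6.52, 5.71 and 3.93. Tns1, the focal adhesion protein tensin 1, had 21.8, 22.1, 23.8 and 24.3 against 6.19, 7.90 and 13.5. None of these 6 genes overlapped between the groups, and the KO libraries were nearly level for Tns1.

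Other genes of the table were also higher in all 4 KO libraries without being called. Meis2, a TALE homeobox factor, had 26.7, 35.8, 43.0 and 44.4 CPM in KO and 10.9, 14.04 and 10.4 in WT (difference 1.65, SE 0.31, adjusted p = 0.0997 by limma). Fmr1nb, an X-linked gene known mainly from testis, had 93.6, 91.7, 81.4 and 97.1 against 30.1, 28.8 and 38.8 (difference 1.49, SE 0.29, adjusted p = 0.12 by limma). Without colony 1 library 2 these differences were 1.55 for Meis2 and 1.503 for Fmr1nb. The 4 KO libraries were nearly level for Fmr1nb, and the miR-302 KO ESC had 91.3 and 98.2 CPM.

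Gdf15, a stress-responsive cytokine, had 20.0, 34.6, 19.9 and 19.2 CPM in KO against 6.63, 4.91 and 9.66. Nefm, the medium neurofilament chain, had 14.7, 13.2, 5.89 and 15.97 against 3.48, 1.28 and 4.35. Rdm1, a RAD52-like factor of DNA repair, had 74.7, 107, 77.9 and 74.8 against 26.8, 29.4 and 45.8. For Gdf15 and Rdm1 colony 1 library 2 stood above 3 near-equal KO libraries.

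On the lower side, Cbr3, a carbonyl reductase, had 11.3, 2.35, 8.86 and 14.1 CPM in KO and 37.8, 32.3 and 34.6 in WT (difference -2.16, SE 0.56, adjusted p = 0.233 by limma). Sfn, the epithelial 14-3-3 sigma protein, had 47.7, 48.8, 35.7 and 44.6 against 199, 220 and 66.8. Tesc, the calcium-binding tescalcin, had 3.09, 0.361, 2.51 and 1.53 against 7.99, 6.73 and 15.0 (difference -2.52, SE 0.40, adjusted p = 0.0565 by limma).
Without colony 1 library 2 the differences were -1.61 for Cbr3 and -1.85 for Tesc. The widest spread in Sfn was within WT. Susd3 had 0, 1, 1 and 3 reads in KO and 36, 32 and 28 in WT, so its KO level was at or under the 3-read limit in each library.

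**Figure D4:**
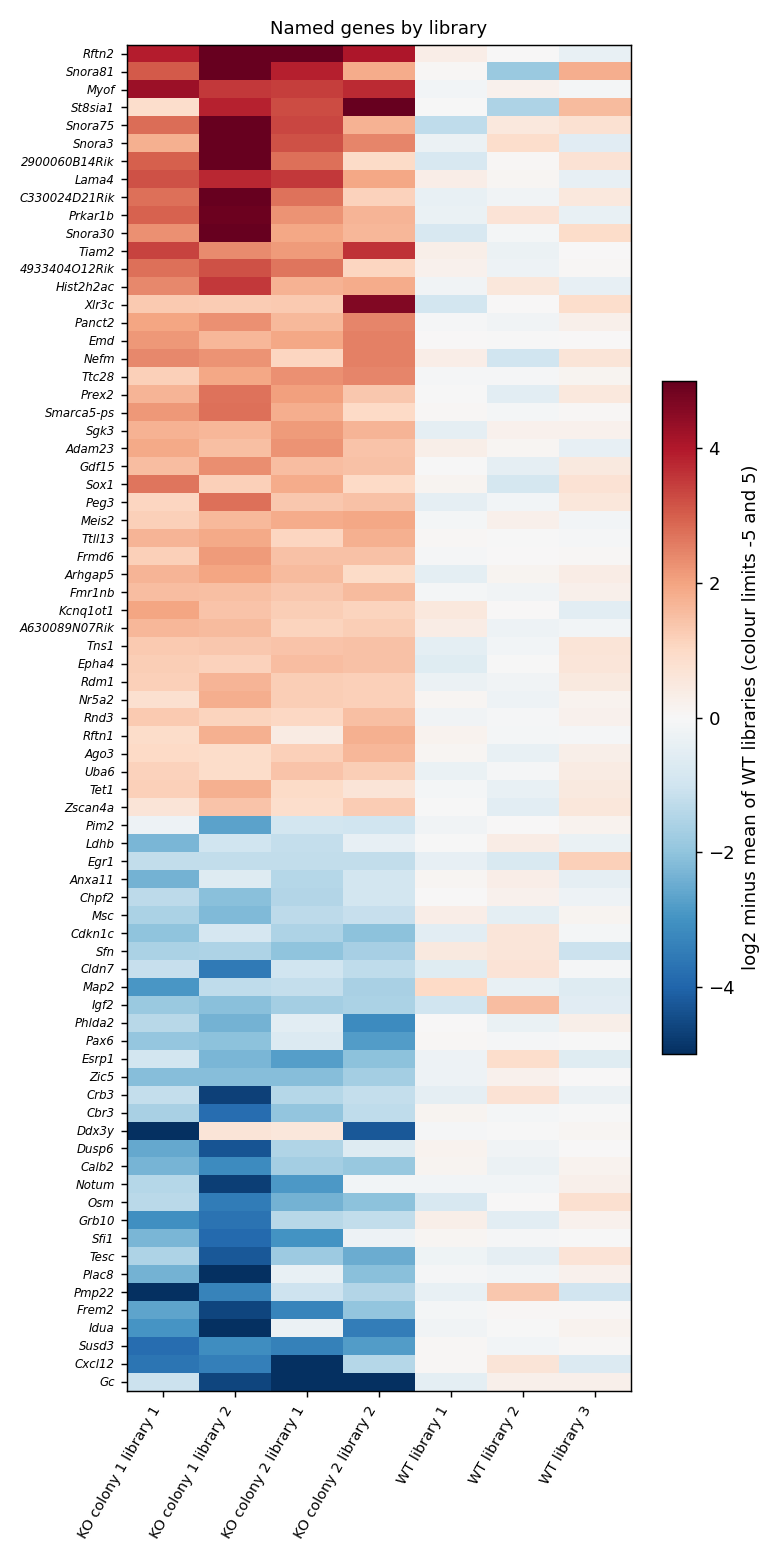
Log2 difference from the WT mean of the 75 named genes (rows, ordered by mean difference) in the 4 KO and 3 WT libraries (columns); red is higher and blue lower, with colours limited at -5 and 5. Rftn2 is at the top and Gc at the bottom, and the Ddx3y row is blue in colony 1 library 1 and colony 2 library 2 and pale red in the other KO libraries.

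Among non-overlapping genes with at least 5 CPM in either group, the 10 with the largest positive difference included 4 small nucleolar RNA genes, Snora81, Snora75, Snora3 and Snora30, which guide pseudouridylation of other RNAs. Snora81 had 5.84, 84.8, 10.4 and 2.46 CPM in KO and 0.598, 0.0534 and 2.35 in WT. Snora75 had 5.90, 46.8, 8.55 and 2.76 against 0.217, 1.12 and 1.31. In all 4 genes colony 1 library 2 was the highest, and the Snora81 difference was 3.94 with it and 2.98 without it.

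The antisense transcript 2900060B14Rik (25.4, 197, 21.8 and 6.16 CPM against 1.74, 3.26 and 5.17) and C330024D21Rik (9.44, 52.8, 9.12 and 3.06 against 0.978, 1.12 and 1.93) shared that high library. Prkar1b, a regulatory subunit of protein kinase A, had 5.38, 21.5, 3.28 and 2.17 against 0.435, 1.01 and 0.414. Antisense and small nucleolar genes overlap other genes, and their reads may come from the host transcript.

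None of the 10 genes with the largest negative difference was called. Gc, the vitamin D binding protein, had 8.76, 0.632, 0 and 0.0493 CPM in KO and 13.1, 22.5 and 22 in WT (difference -4.83, SE 1.00, adjusted p = 0.121 by limma). Cxcl12, the ligand of CXCR4, had 0.286, 0.361, 0 and 1.87 against 5.49, 8.33 and 3.17 (difference -3.43, SE 0.64, adjusted p = 0.0997 by limma). Osm, the cytokine oncostatin M, had 1.72, 0.271, 0.768 and 0.986 against 2.55, 4.64 and 8.07.

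Without colony 1 library 2 the differences were -3.95 for Gc and -3.49 for Cxcl12. For Gc colony 1 library 1 was the nearest to WT, colony 1 library 2 was far lower, and the colony 2 libraries were at or under the 3-read limit. Notum, a secreted Wnt inhibitor, had 15.9, 1.53, 5.79 and 39.3 CPM against 39.6, 40.04 and 52.3, so colony 2 library 2 was just below the lowest WT library. Idua, a lysosomal iduronidase, had 0.916, 0, 6.40 and 0.592 against 7.06, 8.01 and 9.04. The remaining members, Pmp22, Plac8, Sfi1 and Grb10, had differences of -2.82, -2.65, -2.35 and -2.35.

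The pluripotency list gave no call. Of 29 genes, 3 lay above WT in every KO library and 0 below (4.7% and 4.8% of all genes), and 7 had an unadjusted limma p under 0.05 (15.1% of all genes). The median difference was -0.03 (0.08 without colony 1 library 2), beside -0.11 (0.01) over all genes. Nr5a2, a nuclear receptor that activates Oct4, had 42.0, 84.8, 56.5 and 56.3 CPM in KO and 25.9, 20.4 and 27.5 in WT (difference 1.25, SE 0.25, adjusted p = 0.121 by limma). Tet1, which oxidises 5-methylcytosine, had 180, 268, 154 and 121 against 73.8, 60.9 and 108, and Zfp42, the Rex1 factor of naive cells, had 189, 191, 158 and 149 against 74.8, 83.3 and 119.

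The core factors overlapped. Pou5f1 (Oct4) had 626, 2455, 1060 and 576 CPM in KO and 702, 506 and 743 in WT. Nanog had 872, 152, 583 and 969 against 711, 650 and 706, and Sox2 had 333, 307, 354 and 457 against 394, 330 and 425. Pou5f1 was highest and Nanog lowest in colony 1 library 2, and without that library their differences were 0.13 and 0.24.

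Transcripts reported as targets of the shared seed had a median close to that of all genes. Of 30 members 0 were called by limma and 4 had an unadjusted p under 0.05, beside 15.1% of all genes. In every KO library 1 lay above WT (Arid4b, a chromatin factor, 117, 132, 106 and 103 CPM against 55.6, 68.1 and 67.9) and 1 below (Dazap2, 90.2, 24.5, 89.9 and 85.2 against 105, 92.5 and 102). Over all genes 4.7% lay above and 4.8% below. The median was -0.05 (-0.08 without colony 1 library 2).

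Cdkn1a, the p21 inhibitor of G1 kinases, had 168, 287, 228 and 160 CPM in KO and 192, 160 and 227 in WT. Lats2, a kinase of the Hippo pathway, had 10.2, 0.271, 7.43 and 12.3 against 11.03, 7.05 and 7.24. Rhoc, a small GTPase of the cytoskeleton, had 32.7, 82.3, 50.1 and 42.7 against 36.5, 58.0 and 38.6. All 3 overlapped, with differences of 0.11, -0.90 and 0.18, and the Lats2 value was 0.26 without colony 1 library 2.

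A wider description was added after the data were seen, counting matches to the seed in the longest annotated 3′ untranslated region of 11869 genes on the transcript strand. The letters searched were AGCACTT (7mer) and AGCACTTA (8mer, which contains the 7mer). An 8mer was present in 3.56% of genes and either in 17.35%. The median KO minus WT difference was -0.08 with an 8mer (422 genes), -0.09 with only a 7mer (1637) and -0.11 with neither (9810), and 0.07, 0.04 and 0.01 without colony 1 library 2. By library these medians were 0.09, 0.10 and 0.04 in colony 1 library 1 and -0.35, -0.32 and -0.38 in colony 1 library 2. Colony 2 library 1 had -0.06, -0.02 and -0.03, and colony 2 library 2 had 0.13, 0.10 and 0.06. Only colony 2 library 2 thus had the order of the group medians. The untranslated regions differed in length, with medians of 2904.5, 2453 and 940 bases. The same classes had 0.29, 0.22 and 0.12 in miR-290 KO and 0.60, 0.35 and 0.11 in double KO iPSC, which share the WT libraries. A match is only a match of letters.

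Cell-cycle, p53 and TGF-beta lists held few separated genes, and the FGF-ERK list held a larger share. Of 26 G1-S regulators, 1 was lower by at least 1 without overlap: Cdkn1c, the imprinted p57 inhibitor, with 6.07, 13.6, 8.45 and 5.87 CPM in KO and 17.4, 37.7 and 23.5 in WT. Of 25 p53 and apoptosis genes and of 31 TGF-beta, Nodal and BMP genes, 0 were separated, 0 were called by limma, and 1 and 4 had an unadjusted p under 0.05. Over all genes 1.43% were higher and 2.16% lower by at least 1 without overlap. An unadjusted limma p under 0.05 was found in 15.1%, and 0.0313% were called. Of 15 FGF-ERK genes, 0 were higher and 2 lower by at least 1 without overlap, Dusp6 and Egr1. In that list 5 had an unadjusted limma p under 0.05 and 0 were called. Dusp6, a phosphatase induced by ERK, had 1.26, 0.271, 2.77 and 5.22 against 9.23, 7.15 and 8.21 (difference -2.25, SE 0.55, adjusted p = 0.219 by limma). Without colony 1 library 2 the Dusp6 difference was -1.81. Egr1 had no KO reads and 1 to 9 reads in WT, so both groups lay near the read limit.

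Imprinted genes are expressed from 1 parental copy. Of 31, 7 lay above and 5 below WT without overlap, beside 4.7% and 4.8% of all genes. By limma 0 were called and 10 had an unadjusted p under 0.05, beside 15.1% of all genes. Their median was 0.15 (0.01 without colony 1 library 2). Peg3, a zinc finger gene of the paternal copy, had 23.2, 75.6, 28.7 and 30.8 CPM in KO and 8.15, 10.1 and 16.5 in WT. Kcnq1ot1, the antisense RNA of the Kcnq1 domain, was higher by 1.43 (SE 0.29, adjusted p = 0.121 by limma).

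The 5 lower members were Grb10, Igf2, Phlda2, Cdkn1c and H13, of which all but H13 lay at least 1 lower. Grb10, an insulin receptor adaptor, had 6.01, 3.88, 19.8 and 22.3 CPM in KO and 64.6, 36.5 and 60.8 in WT (difference -2.35, SE 0.47, adjusted p = 0.121 by limma), and the difference was -2.19 without colony 1 library 2. Igf2 had 11.5, 9.66, 12.8 and 13.9 against 21.0, 123 and 28.4, and Phlda2 had 22.6, 11.6, 41.4 and 6.61 against 61.8, 47.5 and 74.4. Kcnq1ot1, Cdkn1c and Phlda2 are neighbours on chromosome 7, and there the RNA was higher and the other 2 genes lower in every KO library. H19, next to Igf2, overlapped, at 68.0, 545, 64.3 and 509 against 69.2, 414 and 149. Among the maternally expressed RNAs of chromosome 12, Rian had 94.8, 76.1, 112 and 87.1 against 57.2, 67.3 and 47.5, whereas Meg3 overlapped.

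Epithelial genes had a median of -0.77, which was -0.21 without colony 1 library 2, beside -0.11 and 0.01 over all genes. By library it was -1.24 in colony 1 library 2, -0.79 in colony 2 library 1, and -0.14 and -0.18 in the other 2. Of 20 members, 3 were lower by at least 1 without overlap, against 2.16% of all genes, and all 3 were at low levels: Esrp1, an epithelial splicing regulator (4.58, 1.72, 1.18 and 2.02 CPM against 7.33, 16.5 and 5.73), Crb3 (4.41, 0.271, 3.74 and 4.39 against 7.50, 17.4 and 8.42) and Cldn7 (1.09, 0.0903, 1.23 and 0.986 against 1.63, 4.22 and 2.48). Cdh1, the E-cadherin of naive and epithelial cells, overlapped at 651, 485, 757 and 457 against 659, 462 and 606.

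Neural markers went both ways, while the separated formative markers were all lower. Of 9 neural genes 1 lay above and 2 below WT without overlap, and 3 had an unadjusted limma p under 0.05. Sox1, the early neural factor, had 16.5, 5.78, 9.32 and 5.03 CPM in KO and 2.77, 1.28 and 4.21 in WT (difference 1.67, SE 0.41, adjusted p = 0.218 by limma; 2.05 without colony 1 library 2). Map2, a neuronal microtubule protein, had 0.973, 3.34, 3.48 and 2.56 against 16.5, 6.46 and 5.24, and Pax6 had 2, 1, 9 and 0 reads against 16, 15 and 12. In the formative list (18 genes, median -0.49, -0.12 without colony 1 library 2) 0 genes lay above and 3 below WT without overlap. An unadjusted limma p under 0.05 was found for 6 of the 18. Over all genes 4.7% lay above and 4.8% below, and 15.1% had such a p. Pim2 had 12.1, 2.17, 7.73 and 7.34 against 12.8, 15.0 and 16.4. None of these genes was called.

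The relatives of the called genes were compared as well. Of 20 raftlin, ferlin and annexin genes, Rftn2, Myof and Rftn1 were higher by at least 1 without overlap and Anxa11 lower, beside 1.43% and 2.16% of all genes, and the median was -0.08. The list was drawn up around the called genes Rftn2 and Myof, so their count says nothing further about the families. Rftn1, the other raftlin, had 6.64, 12.2, 4.56 and 11.98 CPM in KO and 3.86, 3.26 and 3.24 in WT, and Anxa11, an annexin, had 27.1, 89.9, 51.7 and 74.5 against 152, 180 and 102. Dysf, the closest ferlin relative of Myof, had 0.572, 0, 0.666 and 1.48 against 0.380, 4.27 and 2.55 and overlapped. Among 19 genes of the nuclear envelope only Emd was separated by at least 1, and Lmna and Lmnb1, which encode lamins, overlapped. Emd is itself a called gene, so this count too says nothing further about its relatives.

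Among 15 genes of microRNA processing, only Ago3 was separated by at least 1, at 1.43, 1.35, 1.69 and 2.37 CPM in KO and 0.706, 0.480 and 0.828 in WT. Dicer1, the enzyme that cuts microRNA precursors, had 74.5, 164, 74.8 and 56.6 against 81.9, 79.1 and 85.7, and Ago2, which carries the mature microRNA, had 39.8, 11.6, 27.4 and 26.1 against 18.1, 15.6 and 32.1. In the glycolysis list Ldhb, a lactate dehydrogenase chain, had 46.6, 115, 102 and 174 against 230, 300 and 182. No gene of these 2 lists was called by limma, and 1 of 15 and 2 of 25 had an unadjusted p under 0.05. Over all genes 15.1% had such a p, and 1.43% were higher and 2.16% lower by at least 1 without overlap.

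Lineage markers other than these showed no member lower or higher by 1 without overlap: 15 fibroblast and mesenchymal, 9 endoderm, 8 primitive streak and 11 trophoblast genes. Their medians were -0.47, -0.27, -0.48 and -0.79, and -0.14, -0.19, -0.23 and -0.77 without colony 1 library 2. By library the trophoblast median was -1.17 and -1.62 in colony 1 and -0.92 and 0.36 in colony 2. The summed level of the 9 trophoblast genes with recovered reads also varied within WT, at 167, 362 and 123 CPM. Of 25 actin and SRF-YAP genes 0 lay above and 1 below WT without overlap, 0 were called by limma, 9 had an unadjusted p under 0.05, and the median was -0.57 (-0.16 without that library). Over all genes 4.7% lay above and 4.8% below WT without overlap, and 1.43% and 2.16% did so by at least 1. An unadjusted limma p under 0.05 was found in 15.1%. In bulk libraries fewer cells of a type and less RNA per cell cannot be told apart. The multicopy X-linked genes were high in 1 library: the median of 10 X-linked genes, most of the Xlr and Rhox families, was 3.38 in colony 2 library 2 and -0.19, -0.76 and 0.44 in the other KO libraries. Members of the Xlr family are near-identical, so their reads may be split among copies.

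**Figure D5:**
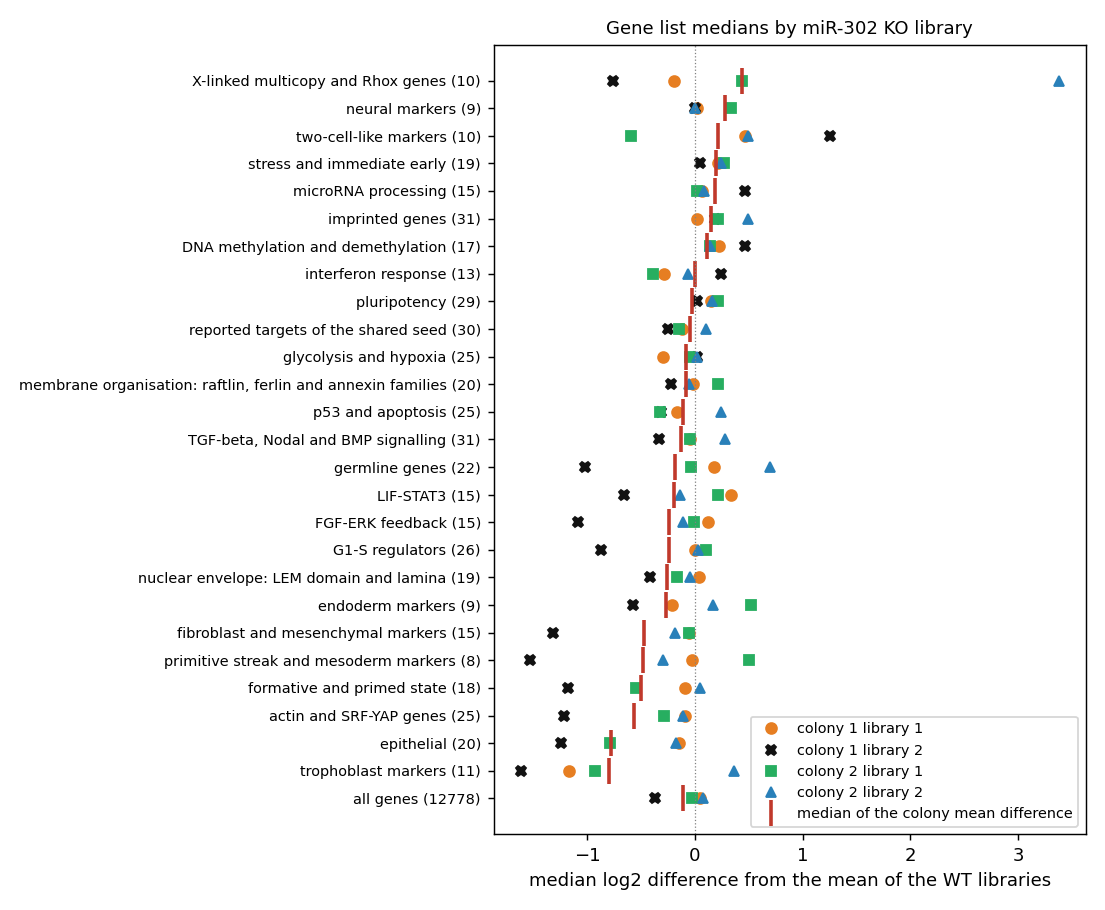
Median log2 difference from the WT mean for 26 gene lists and all genes (number of genes in brackets), by KO library, with the median of the colony mean differences as a red bar. Colony 1 library 2 (black crosses) is lowest in most lists, epithelial genes at -1.24 among them, and colony 2 library 2 (blue triangles) is at 3.38 for the X-linked list.

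The genes that split the libraries of 1 genotype did so strongly. Gm6793 had 96.6 CPM in colony 1 library 2 and 0 in every other library of the series. Gm364 and 1700013H16Rik, both X-linked, had 62.5 and 102 CPM in colony 2 library 2, where the first miR-302 KO ESC library had 46.3 and 88.1, and at most 5.15 in the other KO and WT iPSC libraries. Obox6, an oocyte homeobox gene, had 0.458, 0.903, 27.4 and 0.197 CPM in KO and 28.4, 20.7 and 51.8 in WT, so colony 2 library 1 alone lay in the WT range.
Some genes split WT as well: Sdhd, a subunit of succinate dehydrogenase, had 39.8, 2.44, 1.23 and 111 CPM in KO and 4.78, 53.3 and 60.3 in WT.

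Differences from the other genotypes were then tested for the 75 named genes, with p-values adjusted over all genes. The contrasts with miR-290 KO and double KO iPSC reuse the miR-302 KO libraries by which many of these genes were chosen. The counts among named genes are therefore not independent of that choice. Against miR-290 KO iPSC, a contrast without the WT libraries in which 287 genes (2.25%) were called, miR-302 KO iPSC were higher for 6 named genes and lower for 11. Besides Rftn2, the higher genes were Fmr1nb (5.28 to 10.1 CPM in miR-290 KO, log2 difference 3.504, adjusted p = 0.000382 by limma), Nr5a2 (11.1 to 21.1 CPM, 1.88, adjusted p = 0.00882 by limma), C330024D21Rik, 4933404O12Rik and Panct2. The count of 17 was 5 with colony 2 alone and 21 with colony 1 alone. The lower genes included Igf2 (162 to 818 CPM in miR-290 KO), Grb10 (108 to 140), Cdkn1c (59.6 to 160), Pim2 (23.4 to 31.2), Dusp6 (5.09 to 18.2) and Pax6 (3.84 to 4.89).

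In double KO against miR-302 KO iPSC, where 5987 genes (46.9%) were called, 18 named genes were higher in the double KO and 26 lower. Lama4, Meis2, Ttc28 and Adam23 were higher still in the double KO, at 55.6 to 122, 469 to 757, 295 to 574 and 80.8 to 236 CPM. Fmr1nb (0 to 0.0563 CPM), Nefm (0 in all 4 libraries), Tiam2 (0 to 1.94) and Nr5a2 (0.113 to 0.311) were lower. Dusp6 was at 48.1 to 85.7 CPM and Pmp22, a peripheral myelin protein gene, at 91.5 to 295, whereas both lay below WT in miR-302 KO iPSC without being called.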

How the data were processed

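RNA of 19 libraries was made into 3′ end libraries (QuantSeq FWD kit, 200 ng of RNA, single-end 50 bp reads, per the labels' protocols). Per the submitters' processing notes, Trim Galore 0.66, STAR, Salmon 1.4.0, limma, DESeq2 1.34.0, FastQC 0.11.9, MultiQC and mm10 were used; the role of each is not given in the sources used here. The authors deposited a matrix of log2 values for 12778 genes, although it is titled a count matrix. In 12239 genes (95.78%) whole reads could be recovered from the steps of the log2 values, and 99.66% of these came out whole within 0.02 reads; the other 539 genes have log2 values only. CPM were computed from the recovered reads. The deposited table of miR-302 KO against WT holds mean normalized counts (a signal), log2 fold changes, the standard error of each, a score (fold change over its error) and p-values, per the file headers. The normalized counts of that table matched the recovered reads within 5% for each of 38 shared genes. The matrix has 6 further columns, which match no sample given here and were left out, and 19 of its gene names read as dates.

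The libraries of a colony were averaged. limma 3.58.1 in R 4.3.3, with a trend, was fitted to the log2 values of 13 samples in 6 groups (7 residual degrees of freedom), with Benjamini-Hochberg adjustment over every gene and a threshold of 0.05. The method was tested on simulated data. Groups were also compared by whether the KO and WT libraries overlapped. Gene positions come from a GENCODE annotation of GRCm38 and microRNA sequences from RefSeq. Genes are named if called, in the authors' deposited table, among the 10 largest non-overlapping differences each way at 5 CPM or more, separated by at least 1 log2 unit in a list, most different between libraries or colonies, next to the cluster, Y-linked, or a defining member of a list; the neighbours of called genes were added after their values were seen. The members and the 27 gene lists were chosen with earlier results of these data known. Alternatives were each library as a sample, other scalings, filters, fits and libraries left out.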

Additional observations from a re-analysis of the deposited data

Results flagged for a closer look

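In 80 sets of 4 miR-302 KO libraries, the highest or lowest library was compared with the others; it counted as far when its gap to the nearest library, divided by the range of the 4, passed Dixon's critical value. For a single set of independent values chance gives about 1 in 20. That rate does not apply to the count here, because all sets share the same 4 libraries. Most sets are also named genes, many of them chosen by these libraries, which were known to agree less than others. There were 10 far libraries, and 7 of them were colony 1 library 2. In that library the 20 most abundant genes took 17.1% of reads and the median absolute log2 difference from the WT mean was 1.04. As log2 values minus the WT mean, it was also far from the other 3 for Gdf15 (2.33), Rdm1 (1.70), Snora30 (5.81), Cldn7 (-3.55) and Crb3 (-4.66). Colony 2 library 1 was far for Sgk3, a kinase gene, at 2.12. Colony 2 library 2 was far for Xlr3c at 4.62 and for Zic5 at -1.69. The Zic5 value is a single read in that library against 0 in the other 3.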

How the results depend on the processing

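Each library was used as a sample in the fit with a replicate block, which called 3 genes. For the 2 replicate numbers shared by KO and WT, the correlations of same-numbered deviations were 0.051 and 0.013. The KO deviations of the 2 numbers mirror each other, so these values cannot decide whether the numbers pair the samples. For the genes called against WT (4), limma called 20 with each library as a sample, 16 with the correlation within a colony estimated, 7 without a trend and 7 with robust moderation. Leaving out replicates gave 3 to 1273 calls: 1273 without colony 2 (143 higher, 1130 lower), 264 without colony 2 library 2, 14 without colony 2 library 1 and 7 without the second library of double KO colony 2. Chosen after seeing the data were fits without colony 1 library 1 and colony 2 library 2 (451 calls, Ddx3y reversed to 0.61), without the other 2 (21), and with each library but without colony 1 library 2 (8). Ddx3y was lost in 16 alternatives and Myof in 1.

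Of the named genes, 17 were called against miR-290 KO iPSC, 27 with each library as a sample, and 5 to 21 with 1 KO colony left out. On log2(CPM + 1), non-overlapping genes differing by 1 or more were 289 in place of 459 (118 higher and 171 lower). With replicates left out they were 460 to 1952 (211 to 611 higher, 230 to 1341 lower), highest without colony 2 and also above 1.5 times the full count without colony 1 library 1 (861), colony 2 library 2 (1003) or WT library 3 (916), and 755 to 1805 higher and 875 to 2216 lower without the minimum of 1. Part of any rise with fewer libraries follows from the rule, since non-overlap is then easier to reach. Scaling by median of ratios moved colony 1 library 2 by 0.40 and called 6 genes. Of 2536 values of single genes under alternatives, 2393 kept their direction and side of the threshold, 125 passed it, 17 lost it and 1 reversed. Only 4 of the 75 named genes were called in the main fit. An uncalled gene that stayed uncalled with its sign counts as kept, so the high count says little about the calls. Of 324 list medians 20 moved. The planned edgeR fit was not run, because the matrix holds log2 values. Depth limits genes under 0.271 CPM.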
